A study of Drosophila melanogaster with 5 samples.

Results

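The genes lncRNA:roX1 and lncRNA:roX2 of Drosophila melanogaster encode the noncoding RNAs of the MSL (male-specific lethal) complex, and binding of the complex's MSL2 subunit at both genes is described here together with the 100 kb on either side. The peaks inside the genes were those whose midpoint fell within the annotated gene extent. There were 4 such peaks among the 709 on the list (0.564%), 1 in roX1 and 3 in roX2. A further 16 peaks lay outside the genes but within 100 kb of them, 6 around roX1 and 10 around roX2.

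Binding was measured by CUT&RUN, in which a nuclease tethered to an antibody cuts out the DNA around the bound protein for sequencing. The cells were S2 cells, an established Drosophila line that carries an active dosage compensation system. The labels give 3 libraries with MSL-2 as the target and 2 control libraries whose target is named PPI, and the protocol speaks of a rabbit serum against MSL2 or of pre-immune serum. No genotype, added treatment or time point is given for either group. The deposited data are 1 peak list for the whole series, with peaks 151 bp wide that all lie on X, and which libraries entered it is not stated. No peak therefore has a replicate value, and none of the counts below carries an error between libraries. According to the header, the anti-MSL2 side held 7890306 tags (aligned read positions), and a peak needed at least 25 of them.

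In male flies the MSL complex binds the single X chromosome and raises the transcription of its genes. MSL1 and MSL2 form the core that recognises the X, MOF is a histone acetyltransferase, and the helicase MLE loads the roX RNAs into the complex. The roX genes are themselves on X, and each holds a site inside the transcribed region to which the complex is recruited. The RNAs differ greatly in length but can stand in for each other.

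The peaks were distributed differently within the 2 genes. roX1 (gene 3772376) extends over 5468 bp, from X 3857230 to 3862697 in genome build dm6, the UCSC name for Release 6 of the fly genome. Its peak, at X 3861298 to 3861448, was centred 4143 bp from the end with the lower coordinate and 1324 bp from the other, at 75.8% of the gene's extent. The remaining part of roX1 held no listed peak. The gene table used gives extents without exons, so whether the site is exonic or intronic is not stated here.

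roX2 (gene 3772415) extends over 1368 bp, from X 11579065 to 11580432. Its 3 peaks spread over nearly the whole gene. The first, at X 11579016 to 11579166, began 49 bp outside the gene, with its midpoint 26 bp inside the end with the lower coordinate. The next, at X 11579646 to 11579796, was centred at 48.0% of the extent. The last, at X 11580217 to 11580367, had its midpoint 140 bp from the other gene end. From the start of the first to the end of the last the peaks covered a stretch of 1352 bp, of which 453 bp lay in peaks.

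**Figure D1:**
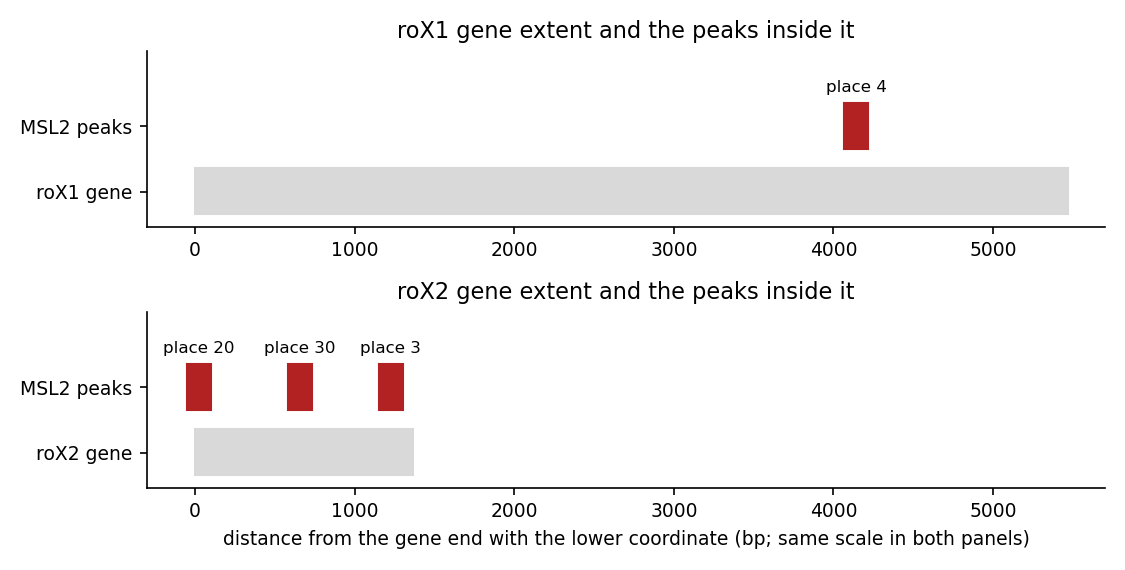
Extents of roX1 and roX2 (grey) and the MSL2 peaks inside them (red), drawn to 1 scale in bp from the gene end with the lower coordinate, with each peak's place in the list. The only roX1 peak lies at 75.8% of a gene of 5468 bp, and the 3 roX2 peaks lie along a gene of 1368 bp, the first of them beginning 49 bp outside it.

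Adjacent midpoints in roX2 were 630 and 571 bp apart. Distances of this size were uncommon among the 708 between neighbouring peaks on X, of which 56 were 630 bp or less and the median was 7477 bp. The 3 midpoints spanned 1201 bp. Of the 707 runs of 3 consecutive peaks on X, 6 spanned 1201 bp or less, the roX2 run included. The peak calling asked for a minimum distance of 300 bp between peaks and for a 4-fold excess over the surrounding 10000 bp, so a further site in or beside roX2 could have been removed. Of 9758 putative peaks, 8575 were removed by a required 10-fold excess over the control and 474 by the local requirement. The positions of the removed peaks were not analysed here. The same filters applied at roX1 and in both windows, so absence from the list is not absence of binding.

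The roX1 peak had no neighbour within 60 kb. The nearest peak on the side of lower coordinates was 60480 bp away and the nearest on the other side 89246 bp away, measured between midpoints. The smaller of these distances was the 20th largest distance to a nearest neighbour among the 709 peaks, for which the median was 3362 bp. Taken singly, the distances towards lower and higher coordinates were the 107th and the 72nd largest of the 708 between adjacent peaks. Each roX2 peak, by contrast, had its nearest neighbour within the gene. The nearest peaks outside roX2 were 5257 and 5458 bp from the gene.

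The 4 genes directly beside the roX genes held no midpoint, which was also the case for most genes on X, where 412 of 2705 (15.2%) held at least 1. The gene ec (echinus, a ubiquitin-specific protease homologue) overlaps the lower end of roX1 by 392 bp and held 0 midpoints, as did yin, a peptide transporter gene 269 bp beyond the other end. Beside roX2, CG11695 at 259 bp and nod, a kinesin-like gene at 340 bp, also held 0 midpoints. A peak counts here for the gene that contains its midpoint, and a peak 140 bp beyond the far end of nod was assigned to no gene.

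Around roX1, all 6 further peaks lay inside protein-coding genes and in 2 groups, both more than 50 kb away. The share of all listed peaks that lie inside genes was not computed, so this count does not set the window apart. On the side of lower coordinates was a group of 4 peaks in 3 genes. Tlk, the Tousled-like kinase, held the peak at X 3781050 to 3781200, 76.1 kb from roX1. HIP-R and HIP, a gene pair named for proteins that interact with the chaperone Hsc70, lay closer. HIP-R held peaks at X 3789932 to 3790082 and X 3791765 to 3791915, and HIP held the peak at X 3800818 to 3800968, 56.3 kb from roX1. Each of the HIP-R and HIP genes was under 3 kb long, with 2509 and 2421 bp.

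The other 2 peaks near roX1 were in Vap33, which encodes a membrane protein of the endoplasmic reticulum that serves at contacts between membranes. They lay at X 3950544 to 3950694 and X 3954134 to 3954284, 87.9 and 91.5 kb from roX1 and 3590 bp from each other. The 6 distances between adjacent peaks in the roX1 window ranged from 1833 to 89246 bp, with a median of 8968 bp. The window was thus made of the roX1 peak between 2 groups of peaks inside genes.

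Around roX2, 8 of the 10 further peaks lay inside protein-coding genes, and 6 of the 10 were within 25 kb. As around roX1, no share over the whole list stands beside the first of these counts. The nearest peak, at X 11573733 to 11573883, was in CG11696, 77 bp inside the gene end farther from roX2. On the other side the nearest was the peak at X 11585815 to 11585965, beside nod. A peak at X 11561498 to 11561648 lay 70 bp outside PGRP-SA, which encodes a recognition protein for bacterial peptidoglycan. The midpoints of these 3 peaks were at most 140 bp from a gene end.

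The gene rho-4, a member of the rhomboid family of membrane proteases, held 3 peaks like roX2, at distances of 19.4, 20.5 and 23.9 kb from it. The first was at X 11599799 to 11599949. The second (X 11600819 to 11600969) and the third (X 11604286 to 11604436) followed within 4487 bp of its midpoint, in a gene of 6451 bp. Met, the juvenile hormone receptor gene Methoprene-tolerant, held the peak at X 11620064 to 11620214. Ptp10D, a receptor tyrosine phosphatase gene, held the peak at X 11622031 to 11622181, with the midpoint 91 bp inside its end. On the side of lower coordinates, Drak, a gene of the death-associated protein kinase family, held the peak at X 11521902 to 11522052, 57.1 kb from roX2.

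**Figure D2:**
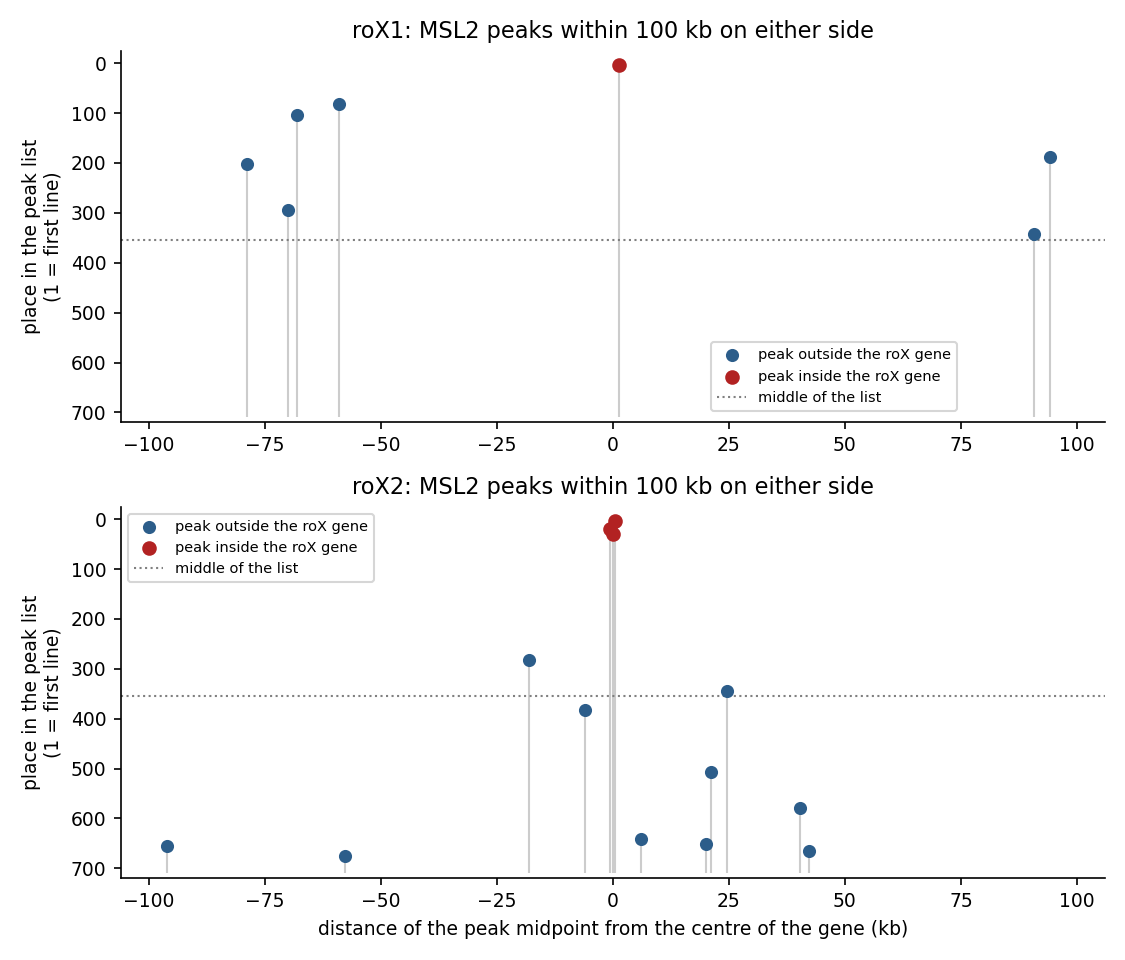
Peaks within 100 kb on either side of roX1 and roX2, by distance of the midpoint from the gene centre in kb (x axis) and place in the peak list (y axis, the first line on top). Points in red lie inside the roX gene and points in blue outside it. The roX peaks are at places 3 to 30 and the 16 surrounding peaks at places 82 to 676. Most peaks of the whole list also come after place 30.

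The number of surrounding peaks was within the range of other genes on X. Within 100 kb on either side, and outside the gene itself, roX1 had 6 peaks and roX2 had 10. Over the 2703 genes on X with both flanks complete, the median was 7 peaks, with quartiles of 4 and 11. As many peaks as around roX1, or more, were found around 1665 of these genes (61.6%), and as many as around roX2, or more, around 904 (33.4%). Genes close to one another share flanks, so these shares describe the chromosome and are not a test.

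Within 5 kb both genes had 0 surrounding peaks, as the median gene did. From 10 to 200 kb, roX1 was below the median and roX2 above it. Within 50 kb roX1 had 0 surrounding peaks, as had 469 of the 2703 genes (17.4%). roX2 had 8 within 50 kb, a number reached or exceeded by 19.8% of the genes, and 6 within 25 kb, reached or exceeded by 13.7%. Over 200 kb on either side the counts were 7 around roX1 and 22 around roX2, against a median of 14. The difference between the genes was not tested, since each is a single place on the chromosome.

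**Figure D3:**
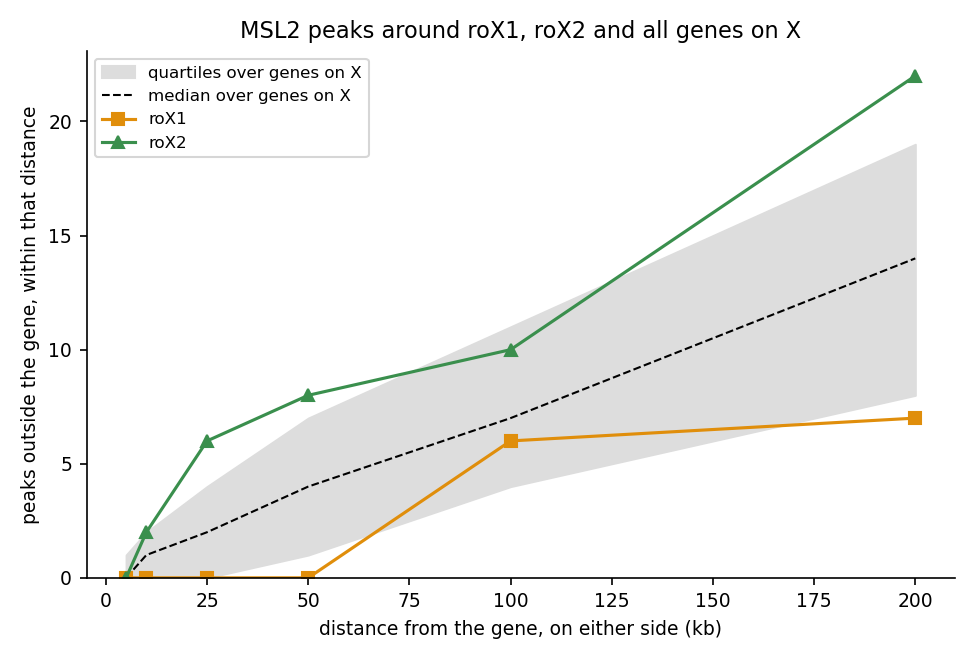
Number of MSL2 peaks outside the gene (y axis) within a given distance on either side (x axis, kb) for roX1, roX2 and all genes on X, with the median (dashed) and quartiles (grey) over genes. roX1 stays at 0 up to 50 kb, while roX2 reaches 8 by 50 kb and 22 by 200 kb.

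Genes with peaks were about as frequent near the roX genes as on X in general. In the roX1 window, 5 of 26 genes held at least 1 midpoint in the window (19.2%), roX1 included. In the roX2 window it was 7 of 36 (19.4%), roX2 included. Among all 2705 genes on X the share with a midpoint was 15.2%.

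The deposited list is not in order of position, and each peak name carries a number. What these stand for is not given in the header, and the deposited score is 1 for every peak. Place and number are therefore given as labels and not as strengths of binding. Across the 709 peaks the 2 rose together (Spearman's rho = 0.998), and they come from 1 file, so they count as 1 piece of information.

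A roX2 peak and the roX1 peak carried the lowest numbers on the list, and the other roX2 peaks came 24th and 28th by number. The roX2 peak nearest to the gene end of higher coordinate had the number 19, the lowest of all 709, and stood at place 3. The roX1 peak had the number 24, the lowest but 1, and stood at place 4. Numbers on the list ran from 19 to 3598, with a median of 482, and the 18 numbers under 19 are not on it. The other roX2 peaks were at place 20 with the number 63, at the lower end of the gene, and at place 30 with the number 67, in its middle.

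The peaks around the roX genes came later in the list than those inside them. The first 30 places, down to the last roX peak, hold 30 of the 709 peaks. Most peaks anywhere on X therefore also come later, so this order does not set the surroundings apart. The 6 around roX1 were at places 82 to 343, with a median of 195.5, and their numbers ran from 132 to 475. The lowest of them belonged to HIP (place 82) and to the second HIP-R peak (place 103). The 10 around roX2 were at places 283 to 676, with a median of 610.5, and their numbers ran from 394 to 1857. Among the first 354 places, which hold 49.9% of the list, were 6 of 6 peaks around roX1 and 2 of 10 around roX2. The latter were the peak beside PGRP-SA (place 283) and a rho-4 peak (place 344). The neighbours of roX1 and of roX2 thus overlapped in place only between 283 and 343, a difference for which no test was made because neighbouring peaks are not independent.

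**Figure D4:**
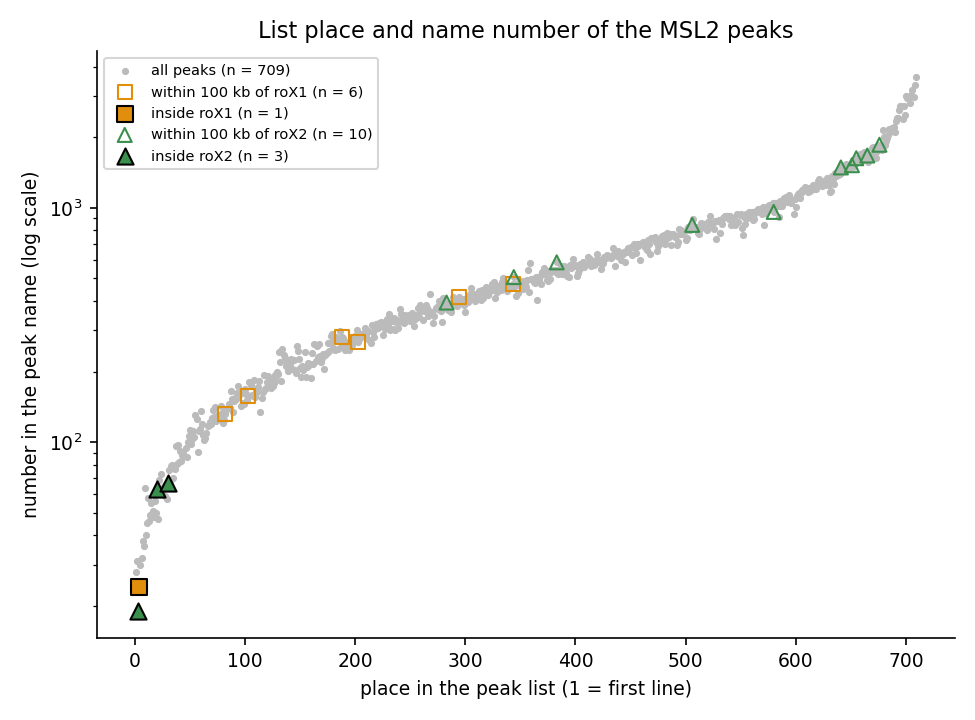
Number in the peak name (y axis, log scale) against place in the list (x axis) for all 709 peaks. Filled symbols are the peaks inside roX1 (square) and roX2 (triangles) and open symbols those within 100 kb. The roX1 peak and a roX2 peak hold the numbers 24 and 19, the lowest on the list, while the open symbols lie between 132 and 1857.

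The pattern in roX2 was then set beside that of the other genes on X. A gene was taken as like roX2 if it had at least 2 midpoints and many of them per kb of gene, and 130 genes had at least 2. roX2 had the highest value of these, 2.19 midpoints per kb. It was followed by CG4025 with 2.01 (3 peaks in 1490 bp), Coa8 with 1.74 (2 peaks in 1151 bp), asRNA:CR45009 with 1.12, CG8097 with 0.957 and CG4645 with 0.944. The peak of asRNA:CR45009 at place 132 also lay inside the overlapping gene FucTC and was counted for both. The places of the peaks differed more: those in CG4025 lay between 207 and 448, and those in Coa8 at 66 and 92.

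In all 40 genes, or 1.48% of the 2705, held 3 or more midpoints. roX2 was the shortest of the 40. Only in su(sable) among them did the midpoints span less than in roX2, with 1103 bp in a gene of 7871 bp. The latest place among the peaks of a gene was 30 in roX2. The next were nocte with 116, Tao with 208 and arm with 237. No other gene with 2 or more peaks had all of them among the first 30 places. This cut equals the latest place in roX2, so roX2 meets it by construction.

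The number of peaks in each gene was tested against its length over all 2705 genes (one-sided Poisson test with Benjamini-Hochberg adjustment), and 4 genes passed at an adjusted p under 0.05, or 0.148% of those tested. roX2 had 3 peaks where 0.0412 were expected from its length (n = 709 peaks, adjusted p = 0.0197). CG4025, with 3 peaks in 1490 bp, had the same adjusted p. The remaining genes that passed were nej and rudhira, so passing was not particular to roX2. roX1 had 1 where 0.165 were expected and did not pass (n = 709 peaks, unadjusted p = 0.152, adjusted p = 1). The test treats peaks as independent, although peaks on X cluster. Merging peaks within 5 kb joined those in roX2 into a single region, and roX2 no longer passed (n = 441 regions, unadjusted p = 0.0253, adjusted p = 1). Under the other 3 alternatives its adjusted p lay between 0.00193 and 0.0197, but none of them could have taken a peak from roX2. The lowest value came from the first 354 peaks alone. All roX2 peaks stand at place 30 or earlier, so this cut kept them while the expected count fell to 0.0206. An overlap of 1 bp only widens the midpoint rule, and testing only protein-coding and roX genes left the roX2 peaks unchanged. These 3 values therefore do not show that the roX2 result is robust.

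The roX1 pattern, a single peak early in the list, was shared by more genes. Of the 412 genes with a midpoint, 282 held exactly 1. The 5 of these nearest to roX1 in the list were Paics (place 1), an enzyme gene of purine synthesis, crm (place 5), Smr (place 6), a corepressor gene, CG14408 (place 9) and sno (place 11). Their lengths ran from 3582 bp in Paics to 58416 bp in Smr, with roX1 at 5468 bp.

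Among long noncoding RNA genes the roX genes came first in the list. Of 241 annotated lncRNA genes on X, 13 held a midpoint (5.39%), 10 of them exactly 1, against 15.2% of all genes on X. Gene lengths were not matched between these shares, so they do not show that lncRNA genes hold fewer peaks for their length. After roX2 and roX1, at places 3 and 4, the next was lncRNA:CR44357 with peaks at places 45 and 70 in a gene of 239347 bp. Both of these peaks also lay inside the overlapping protein-coding gene CG1677 and were counted for both. Likewise, the peak of lncRNA:CR44816 also lay inside Marf, and the earliest peak of lncRNA:CR32773 inside Usf. The remaining 10 lncRNA genes had their lowest place at 167 or later. The most peaks of any, 4, were in lncRNA:CR32773, a gene of 223710 bp where its length gave 6.74. In peaks per kb, roX2 with 2.19 lay close to lncRNA:CR44816 with 2.23 and lncRNA:CR44965 with 1.90, each from 1 peak in a gene of at most 525 bp. The highest value, 4.74, came from 1 peak in lncRNA:CR44508, a gene of 211 bp.

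**Figure D5:**
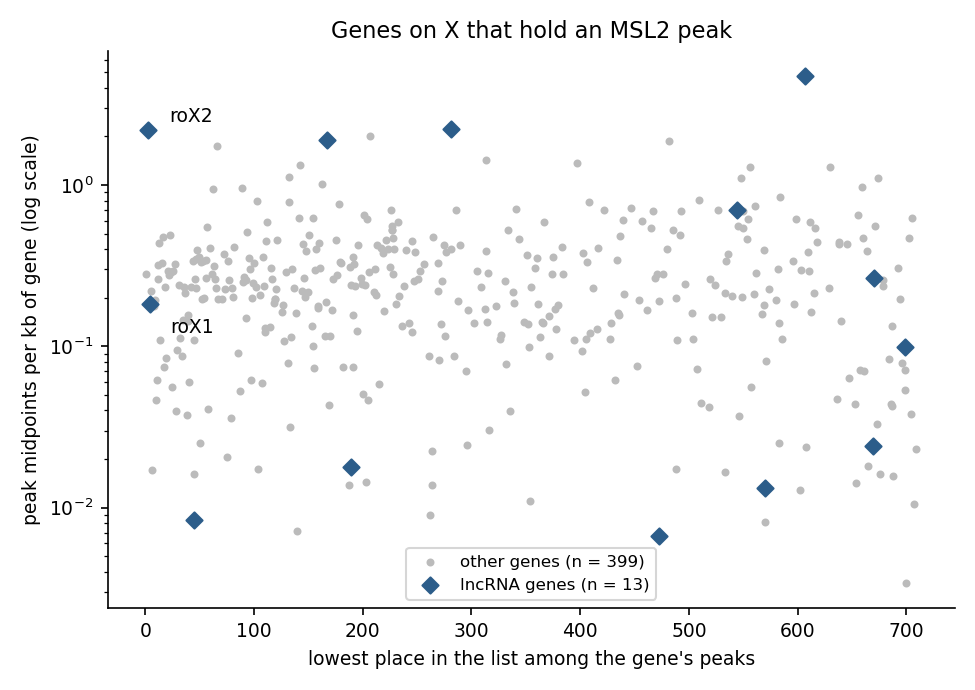
Peak midpoints per kb of gene (y axis, log scale) against the lowest place in the list among the gene's peaks (x axis) for the 412 genes on X with a midpoint, lncRNA genes in blue. roX2 (2.19 per kb, place 3) and roX1 (0.183 per kb, place 4) are the lncRNA genes farthest to the left.

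Of 11 genes of the dosage compensation system, the 4 on X were roX1, roX2, mof and Sxl, and the 2 roX genes alone held a midpoint. With 15.2% of all genes on X holding 1, the absence of a midpoint from mof and Sxl does not set them apart. The acetyltransferase gene mof had its nearest peak 442 bp outside its extent, at place 357. For Sxl, whose product blocks MSL2 translation in females, the nearest peak was 190.3 kb away. The other 7 genes are autosomal. They are msl-1, msl-2, msl-3 and mle, which encode subunits of the complex, Clamp, which encodes a zinc finger protein that binds GA-rich DNA, the kinase gene JIL-1, and Unr, whose product acts with Sxl on msl-2 mRNA. No peak of the list lay off X, so these 7 could not hold any.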

How the data were processed

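Per the file headers, the authors ran HOMER findPeaks (factor style) on a tag directory for anti-MSL2 and used a control directory as input. Listed peaks passed a false discovery rate of 0.001, a 10-fold excess over input and a 4-fold excess over the surrounding 10000 bp. The submitters' processing notes name Bowtie2 2.2.9, SAMtools 1.9, HOMER 4.9 and build dm6. Which libraries each directory held is not given in the sources used here. The deposited score is 1 for every peak, so start, end, name and order were used. The header counts 160514 of 7890306 anti-MSL2 tags in peaks, and the depth of single libraries is unknown.

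Starts were converted to 1-based positions. Genes came from a RefSeq table of Release 6 (2705 genes on X), without strand or exons. A peak belonged to a gene that contained its midpoint. The number of peaks in each gene was compared with its length in a one-sided Poisson test, checked on simulated data (Python 3.11.15, scipy 1.17.1), with Benjamini-Hochberg adjustment. The simulated counts were drawn without clustering of peaks, so the check does not cover clustered peaks. The excess planted per gene was on average larger than the roX2 count, so the check does not show how well a gene like roX2 is found. All other comparisons are descriptions. Merging joined peaks at most 5 kb apart, end to start. Members, gene lists and tests were chosen with earlier results of these data known. Named were the roX genes, their neighbours, the genes with peaks in the windows, a list of dosage compensation genes and, as most like each roX gene, 5 genes by peaks per kb or by place. In addition FucTC, su(sable), nocte, Tao, arm, CG1677, Marf, Usf, nej, rudhira and the lncRNA genes were chosen for mention after seeing their values. The gene of 1 peak in the roX2 window is not reported here. Sequence motifs were not searched, since no genome sequence was used here.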

Additional observations from a re-analysis of the deposited data

How the results depend on the processing

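Of 29 alternative values, 22 stayed on the same side of the threshold or within 1.5 times the reported value. The 4 peaks inside the roX genes were found under all 3 alternatives: an overlap of 1 bp, genes extended by 1 kb, and the first 354 peaks alone. None of the 3 could have lost a peak, although they count among the 22. Overlap and extension only widen the midpoint rule, and the 4 peaks stand early in the list. The 22 also include ranks by the number in the name, which follow place closely, and the roX2 Poisson results that could not lose a peak. They include the roX1 window among the first 354 peaks too, where all of its peaks stand. The count of 22 is therefore not a measure of robustness. Counted with the peaks inside the gene, the roX1 window held 7 peaks and the roX2 window 13. Within 50 kb roX1 had 1, its own peak, which leaves no spacing to compute. Within 200 kb roX2 had 25, and among the first 354 peaks it had 5 within 100 kb, where fewer peaks were counted. Merging peaks within 5 kb raised the median spacing from 8968 to 35225 bp around roX1 and from 5440.5 to 16227 bp around roX2. The number of genes past the Poisson test fell from 4 to 0 after merging, with 103 at an unadjusted p under 0.05, against 130 without merging. Both counts are out of 2705 genes tested, and neither share is above 0.05, so neither count shows an excess of such genes. The planned set of the first 354 peaks is not known to be stricter. No paired analysis was possible because peaks are given by position with no value per library, and for the same reason no library could be left out.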
